A study of Mus musculus with 6 samples.

Results

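The comparison described here sets the genotype Dup-LdeltaBor against the genotype Dup-L, that is, a large duplication at the Sox9/Kcnj locus without and with the chromatin boundary that lies inside it. Its members are 2 of the 6 mouse capture Hi-C libraries of the series, chosen by genotype label, with 1 library per genotype. Both libraries came from limb buds of mouse embryos at stage E12.5 (embryonic day), and both genotypes carry the Dup-L duplication, so the groups differ by label only in the deltaBor deletion of the boundary. The genotypes WT and deltaBor, with 1 library each from the same tissue and age, were used beside them because they hold the same boundary deletion on a chromosome without the duplication. The number of embryos pooled in a library and the zygosity of the alleles were not given in the sources used here. A map of DNA contacts carries no marker transcripts, so the labelled tissue could not be checked.

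Mammalian chromosomes fold into topologically associating domains, stretches whose pieces contact each other more often than they contact the neighbouring stretch. The edges, or boundaries, usually bind the architectural protein CTCF, which together with cohesin holds back contacts between the domains on either side. At this locus the boundary separates the domain of Sox9, a transcription factor that directs cartilage formation in the limb, from the domain of Kcnj2 and Kcnj16, which encode inwardly rectifying potassium channels. A duplication that spans a boundary places a further copy of it, and of chromatin from both neighbouring domains, on the same chromosome. In the GRCm38 gene table Map2k6 is followed by Kcnj16 and Kcnj2, then by Gm11677 and last by Sox9, which puts the Kcnj genes on the centromeric side and Sox9 on the telomeric side.

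A contact is a read pair that joins a pair of 10 kb bins of the mm9 build, and the maps covered 109.01 to 114.88 Mb of chromosome 11 in 587 bins. The duplicated segment spans 110.96 to 112.52 Mb, 1560 kb in all. P denotes the centromeric 420 kb of it, up to the boundary (110.96 to 111.38 Mb, 42 bins). Q denotes the telomeric 1110 kb (111.41 to 112.52 Mb, 111 bins). The 3 bins between them, which hold the deletion, were left out. The centromeric rest (110.2 to 110.96 Mb) and the telomeric rest (112.52 to 112.65 Mb) are the undeleted, unduplicated stretches that adjoin the segment, and the far flanks run from there to the ends of the map.

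Total contacts were 8244295 in Dup-L and 8965219 in Dup-LdeltaBor, against 7051882 in WT and 6337918 in deltaBor. Between 93.8% (Dup-LdeltaBor) and 96.1% (WT) of the 172578 pairs of bins were filled by at least 1 contact. With 1 library per genotype no test of the genotypes was possible, no p-value is given, and genotype cannot be told apart from library or from any batch. The intervals in parentheses are exact 95% binomial intervals (Clopper-Pearson) on the counts. They cover counting error only, leave out the error of the scaling factor and of the copy ratio, and are too narrow wherever amplified duplicates remain among the read pairs.

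The left-out bins checked the labels. Bin 111390001 to 111400000, which lost every contact in deltaBor (28639 in WT, 0 in deltaBor, which allows up to 0.0116% of the WT level), held 48983 contacts in Dup-L and 1839 in Dup-LdeltaBor. That is 2.85% of its Dup-L level, relative to the median bin of P and Q. The next bin on the centromeric side had 45426 contacts in Dup-L and 11515 in Dup-LdeltaBor, a kept level of 19.2%, and kept 16.9% in deltaBor. The next bin on the telomeric side had 45261 and 33090, a kept level of 55.5%, and kept 51.5% in deltaBor. Contacts of a bin with itself, which do not depend on distant partners, were kept to 4.81%, 2.56% and 28.0% in the 3 bins in Dup-LdeltaBor. The neighbouring bins outside the left-out stretch kept 90.6% to 94.0%. The kept levels were thus ordered alike in both boundary deletions, and the middle bin was emptied in deltaBor and nearly so in Dup-LdeltaBor.

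The boundary is inside the duplicated segment, so how much of the segment each library holds bears on every fold. Contacts of a bin with itself inside P and Q numbered 507033 in Dup-L and 581454 in Dup-LdeltaBor. Relative to the same quantity outside the segment, the ratio of Dup-LdeltaBor to Dup-L was 1.37 (1.36 to 1.37). It was 1.40 (1.38 to 1.41) in P and 1.36 (1.35 to 1.37) in Q, and ran from 1.19 to 1.61 over the 153 bins. Against WT the ratio was 1.74 in Dup-L and 2.38 in Dup-LdeltaBor, while deltaBor stood at 1.02. The 2 duplicated libraries therefore did not hold the segment at the same level. Whether this is zygosity, another number of copies or another property of the libraries was not tested. Below, a scaled fold is the ratio of contacts of Dup-LdeltaBor to Dup-L after scaling both to their contacts on the same side outside the segment (scale factor 0.941). A copy-adjusted fold is that value divided by 1.37.

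Among contacts inside the segment, those between P and Q stood furthest above the copy ratio in Dup-LdeltaBor. Here and below, across the boundary refers to positions on the reference. The maps do not tell which copy of the segment a bin came from, so such a contact need not pass a boundary on the duplicated chromosome. P and Q shared 354020 contacts in Dup-L and 680850 in Dup-LdeltaBor, a scaled fold of 2.04 (2.03 to 2.05) and a copy-adjusted fold of 1.49 (1.488 to 1.501). Contacts within P numbered 235101 and 303510, which gave a copy-adjusted fold of 1.00 (0.998 to 1.01). Those within Q numbered 1417475 and 1904081, a copy-adjusted fold of 1.04 (1.04 to 1.05). Once the copy ratio was divided out, contacts inside each side lay near the Dup-L level while contacts between the sides were above it. That division takes contacts to go up in proportion to the copy ratio. Between Dup-L and WT, which both keep the boundary and differ 1.74-fold in the copy ratio, the scaled folds were 1.96 within P and 1.87 within Q but 4.79 between P and Q. Contacts between P and Q thus exceeded the copy ratio with the boundary in place, and the parts of boundary and copy level in the 1.49 cannot be told apart. With the authors' KR-normalised values, in which every bin has the same total, the undivided folds were 1.36 between P and Q, 0.896 within P and 0.963 within Q, so the order of the 3 was kept. Within Q the direction depended on the scale, since library totals gave 0.904. Within P they gave 0.868. With same-bin contacts put on the scale of the folds, the copy ratio was 1.22 instead of 1.37. The folds were then 1.68 between P and Q, 1.13 within P and 1.17 within Q. How near contacts inside each side lay to the Dup-L level thus depended on the scale.

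A share within a library needs no scale factor, but it moves with the duplication too. Of the contacts inside the segment at 2 or more bins apart, 17.6% (17.6 to 17.7) joined P to Q in Dup-L and 23.6% (23.5 to 23.6) did so in Dup-LdeltaBor. In WT the share was 7.77% (7.72 to 7.82) and in deltaBor 12.7% (12.6 to 12.8). The library without the boundary had 5.93 more percentage points in the duplicated pair and 4.94 more in the pair without the duplication. As a ratio of shares, the step was 1.34 with the duplication and 1.64 without it. From WT to Dup-L, with the boundary in both, the share was 9.87 points higher, a ratio of 2.27, so the step to Dup-LdeltaBor, whose copy ratio is 1.37 times that of Dup-L, is not free of the copy level. Dup-L, which keeps the boundary, already had a higher share than deltaBor, which lacks it. Seen from P, 60.1% of its contacts within the segment reached Q in Dup-L and 69.2% in Dup-LdeltaBor. Seen from Q, the larger side, 19.98% and 26.3% reached P.

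In a grid of 100 kb by 100 kb blocks over the whole map, 148 of 1845 blocks with at least 50 contacts in both libraries had a scaled fold of 1.5 or more in Dup-LdeltaBor, 8.02% of those measured. All 60 of the blocks that join P to Q were among them, from 1.63 to 2.75 with a median of 1.98. Of the 91 blocks inside P or inside Q, 17 passed the same threshold, up to 1.61. After division by the copy ratio, 22 of the 60 were at or above 1.5, and these were all of the 22 such blocks among the 151 with both ends in the segment (14.6%). Their copy-adjusted folds ran from 1.19 to 2.01 with a median of 1.45. Those inside P or inside Q ran from 0.866 to 1.18 with a median of 1.04, and 0 of them reached 1.5. The 2 ranges of copy-adjusted folds did not overlap, but they nearly met. The counting intervals of the lowest P to Q block (1.07 to 1.33) and of the highest block inside a side (1.15 to 1.21) overlapped.

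**Figure D1:**
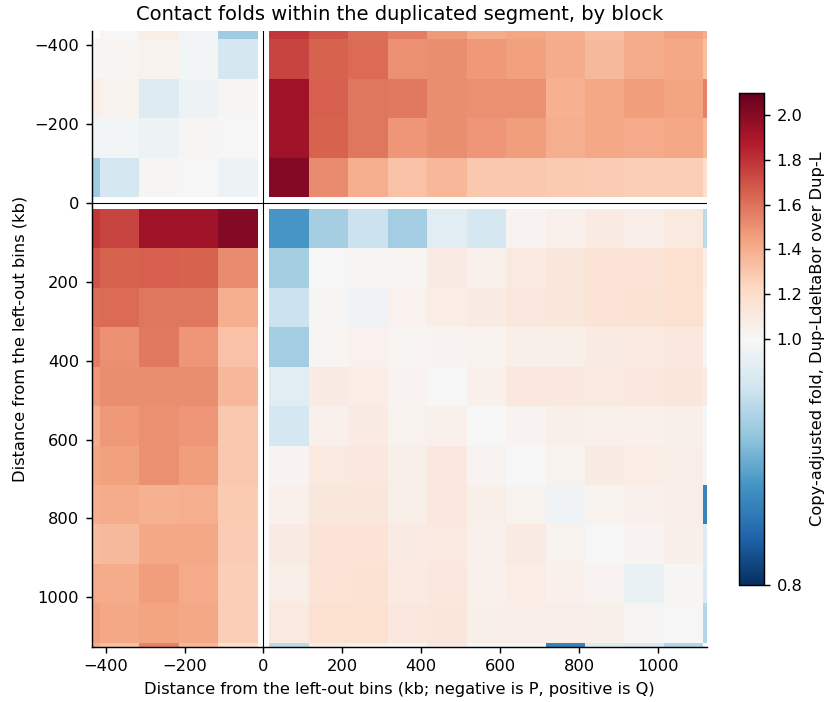
Each square is a block of up to 100 kb by 100 kb within the duplicated segment, placed by its distance in kb from the left-out bins on both axes (negative is P, positive is Q), and its colour gives the copy-adjusted fold of Dup-LdeltaBor over Dup-L. The blocks joining P to Q, at 1.19 to 2.01, form the red rectangles, darkest beside the boundary on the Q side, and the blocks within P or Q stay between 0.866 and 1.18.

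The P to Q blocks with the largest copy-adjusted folds all shared the first 100 kb of Q, which end at 111510000. With the last 100 kb of P the block held 13929 contacts in Dup-L and 36031 in Dup-LdeltaBor, at 2.01 (1.97 to 2.05). With 111080001 to 111180000 it held 8833 and 22011, at 1.94 (1.89 to 1.99). The remaining 3 of the top 5 lay at 1.75 to 1.93, so every part of P contacted this stretch of Q more often in Dup-LdeltaBor. The 5 smallest folds all involved the last 100 kb of P, paired with parts of Q 730 to 1130 kb away, at 1.19 to 1.29. The stretch of P nearest to the boundary was thus in both the highest and the lowest block.

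Single bins showed the same asymmetry. All 111 bins of Q had more contact with P after copy adjustment, from 1.30 to 2.01 with a median of 1.43. The 10 bins of Q nearest to the boundary had a median of 1.91 and the 10 farthest 1.39. In the first bin of Q, which ends at 111420000, contacts with P numbered 4003 in Dup-L and 10364 in Dup-LdeltaBor, at 2.01. At 100 kb into Q the fold was 1.91 (4447 and 10942 contacts), and in the next bins it was 1.75 and 1.65. High values were therefore held by a strip of about 100 kb with a step down at its telomeric edge. The 42 bins of P ran from 1.22 to 1.60 with a median of 1.52, and the 10 nearest bins (median 1.492) did not stand above the 10 farthest (1.502). The lowest, 1.22, was the bin of P next to the boundary, which already sent 60.9% of its segment contacts to Q in Dup-L and sent 66.2% in Dup-LdeltaBor. For the first bin of Q the share going to P was 17.1% in Dup-L and 32.8% in Dup-LdeltaBor, the widest step of any bin at 15.7 percentage points. The smallest step was 2.33 points in Q and 5.23 in P, so all 153 bins sent a larger share to the other side in Dup-LdeltaBor.

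The copy-adjusted fold between P and Q was largest at short distances. For bins 20 to 100 kb apart on the reference, P and Q shared 4132 contacts in Dup-L and 11761 in Dup-LdeltaBor, at 2.21 (2.14 to 2.29). The class holds 21 bin pairs of P with Q and none at its shortest distances, since the left-out bins lie between them. At 100 to 200 kb the numbers were 13434 and 31378, at 1.82, and at 400 to 500 kb they were 28832 and 58491, at 1.58. From 800 kb to 1600 kb apart the fold stayed between 1.38 and 1.43. The fold in deltaBor over WT had the same shape from a higher start, at 3.15 for 20 to 100 kb, 2.58 for 100 to 200 kb and 1.41 to 1.496 beyond 800 kb. These are distances on the reference, which include neither paths through the second copy of the segment nor the shorter path between P and Q after the deletion. Per bin pair, P and Q shared 66.9 raw contacts in Dup-L at 500 to 600 kb and 173 at 1500 to 1600 kb. In WT these values were 16.5 and 12.6. The parts of contacts between copies and of the shorter path in the folds were not tested.

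Within Q the distance profile differed in direction between the backgrounds. In Dup-LdeltaBor over Dup-L the copy-adjusted fold was 1.00 at 20 to 100 kb, 1.06 at 400 to 500 kb and 1.12 at 900 to 1000 kb. With KR-normalised values it was 0.921, 0.984 and 1.03, lower throughout but likewise higher at long distances. In deltaBor over WT the scaled fold was 1.07, 0.965 and 0.829 at the same distances, and 0.675 at 1000 to 1100 kb. The library without the boundary thus had fewer long contacts inside Q in the pair without the duplication, and no such deficit in the duplicated pair. The contrast is between single libraries, the part of the copy ratio in it was not tested, and no test of the difference was possible. Within P the 2 comparisons were alike up to 400 kb, at 0.954 to 1.03 and at 0.916 to 1.10.

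**Figure D2:**
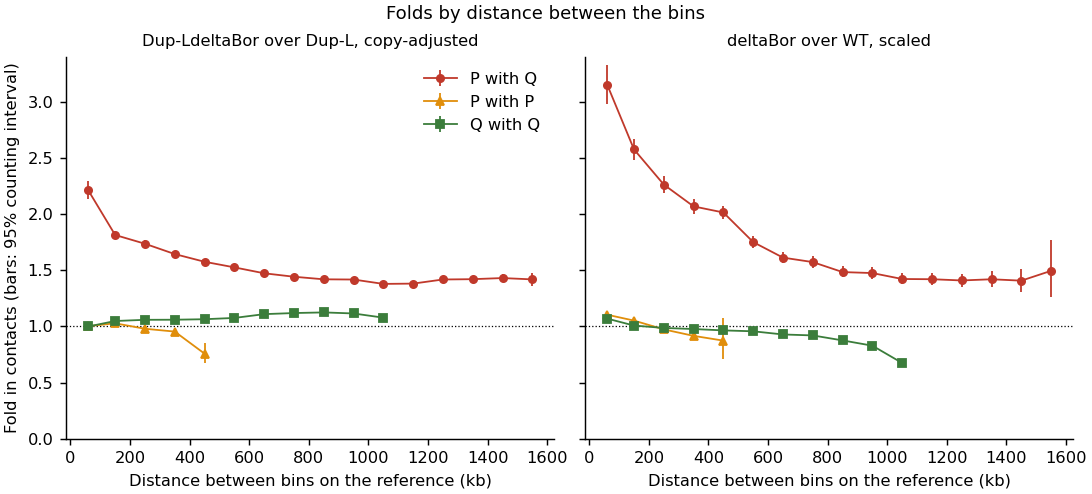
The fold in contacts is plotted against the distance between the bins on the reference in kb, for Dup-LdeltaBor over Dup-L after copy adjustment (left) and for deltaBor over WT after scaling (right), with bars for the 95% counting interval and with classes of at least 200 contacts in the control. The P with Q line falls from 2.21 to about 1.4 on the left and from 3.15 to about 1.4 on the right, while the Q with Q line lies at or above 1 on the left and goes down to 0.675 on the right.

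Setting contacts across the boundary against contacts within Q at the same distance, inside the same library, gives a measure of separation that needs no scale factor, although it is higher in Dup-L than in WT with the boundary in both. A value of 1 means that a pair of bins on opposite sides was in contact as often as a pair within Q. At 20 to 100 kb the ratio was 0.486 in Dup-L and 1.05 in Dup-LdeltaBor, and 0.344 in WT and 1.05 in deltaBor. Close to the boundary, both deletions thus reached the level of contacts within Q at the same reference distance. Further away they did not. The deletion brings P and Q closer than on the reference, while bins within Q keep their distance. Its part in the ratio was not tested. At 300 to 400 kb the ratio was 0.398 in Dup-L and 0.618 in Dup-LdeltaBor, against 0.213 in WT and 0.450 in deltaBor. At 900 to 1000 kb it was 0.581 and 0.738, against 0.246 and 0.440. Beyond 100 kb Dup-LdeltaBor stayed under 1 in every class, between 0.618 and 0.801. Dup-L with its boundary passed deltaBor without it from 500 kb outwards. KR-normalised values kept these orders, at 0.524 in Dup-L and 1.20 in Dup-LdeltaBor for 20 to 100 kb.

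**Figure D3:**
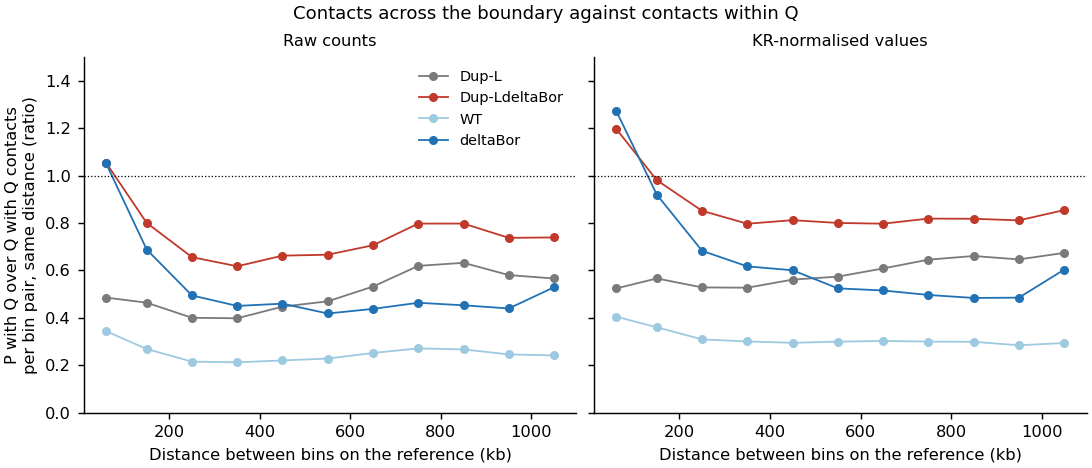
The ratio of contacts per bin pair between P and Q to those within Q is plotted against distance on the reference in kb, for raw counts (left) and KR-normalised values (right), with a point for each of the 4 libraries per distance class. Dup-LdeltaBor and deltaBor start together at 1.05 in the raw counts, and from 200 kb on Dup-LdeltaBor runs highest, at 0.618 to 0.798.

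Profiles of 4 viewpoints of 30 kb showed where the contacts of the boundary's own flanks went. The viewpoint on the telomeric side, the first 30 kb of Q, had 14918 contacts with P in Dup-L and 38161 in Dup-LdeltaBor, and the part of all its contacts that went to P was 12.0% and 24.2%. Its copy-adjusted fold was 1.99 (1.95 to 2.03) with P and 0.908 with Q, its own side. It was in contact with the far telomeric flank at a scaled fold of 0.701 (19067 and 12575 contacts) and with the telomeric rest at 0.687, neither of which is duplicated. In windows of 100 kb these folds were 0.597 to 0.752 over the first 1200 kb beyond the segment and 0.886 to 1.26 further out. With the centromeric rest the scaled fold was 1.64 (9425 and 14583 contacts). This stretch therefore had more contact towards the Kcnj side and less contact towards the Sox9 side over the first 1200 kb beyond the segment.

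The viewpoint on the centromeric side, the last 30 kb of P, showed the mirror pattern with smaller values. It had 34054 contacts with Q in Dup-L and 56791 in Dup-LdeltaBor, 39.6% and 51.6% of all its contacts, at a copy-adjusted fold of 1.30. The fold with the first 100 kb of Q was 1.97 (1.91 to 2.04) and with parts of Q over 200 kb away it was 0.961 to 1.22. Its contacts with the centromeric rest had a scaled fold of 0.768 (16648 and 12042 contacts), against 0.714 in deltaBor over WT. At the outer ends of the segment, contacts with the other side had copy-adjusted folds of 1.49 (P end with Q) and 1.40 (Q end with P). Contacts of these ends with the rest beside them had scaled folds of 1.02 and 1.04, copy-adjusted folds of 0.746 and 0.763, and folds of 0.829 and 0.912 with KR-normalised values. On each of these scales they lay above the corresponding folds of the viewpoints beside the boundary, which were 0.768 and 0.687 scaled, 0.562 and 0.503 copy-adjusted, and 0.665 and 0.596 with KR-normalised values.

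**Figure D4:**
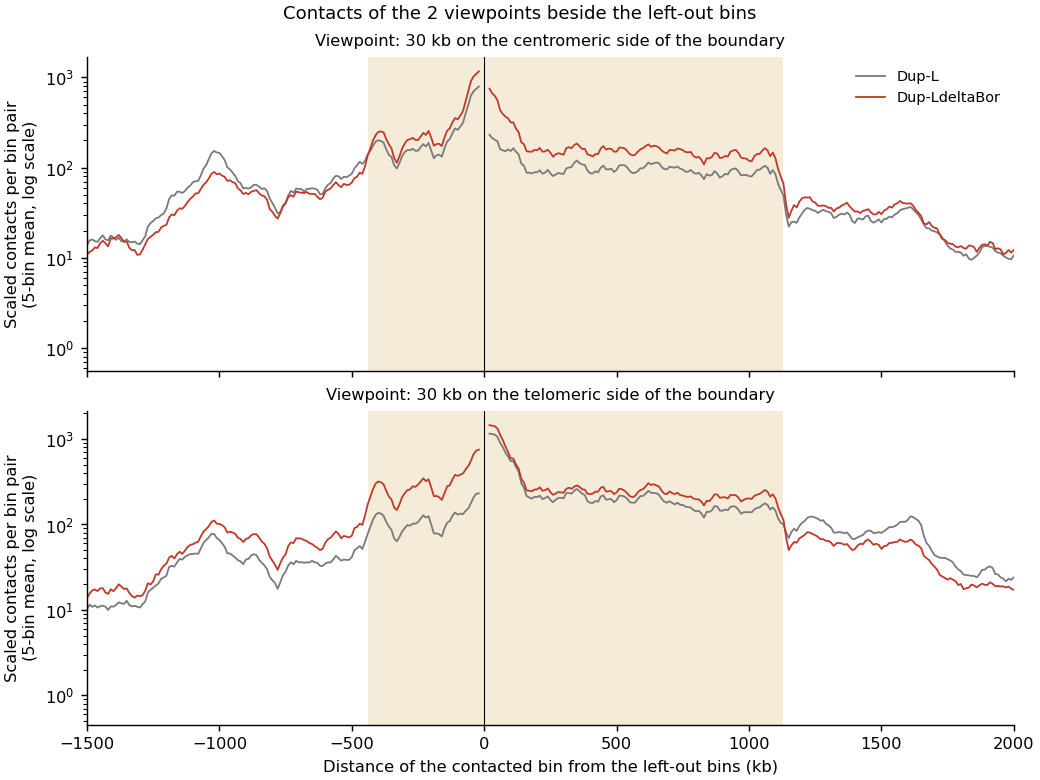
Scaled contacts per bin pair (mean of 5 bins, log scale) of the 30 kb beside the boundary in P (top) and in Q (bottom) are plotted against the distance of the contacted bin from the left-out bins in kb, in Dup-L (grey) and Dup-LdeltaBor (red), with the duplicated segment shaded. In the lower panel Dup-LdeltaBor lies above Dup-L over P and the centromeric flank and below it from the telomeric end of the segment to the edge of the plot, where the scaled folds in 100 kb windows were 0.597 to 0.752.

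The insulation score, the log2 of the mean contact across a position within 500 kb on either side over the mean of all positions, summarises how well a position separates its flanks, with low scores at boundaries. A gap of 3 bins was kept at each position, and the left-out bins were dropped from the windows. At the boundary the score was -0.05 in Dup-L and 0.75 in Dup-LdeltaBor, a difference of 0.80 (0.80 to 0.81) on the log2 scale. It was -1.47 in WT and -0.44 in deltaBor, a difference of 1.03. Raw scores contain the copy ratio of the segment. With KR-normalised values the scores were -0.58 in Dup-L and -0.01 in Dup-LdeltaBor, a difference of 0.57, against 0.97 between WT and deltaBor. The KR-normalised score of WT was -1.41, so it too was higher in Dup-L than in WT, with the boundary in both. The part of the copy level in the 0.57 was not tested. Over the 156 positions of the segment, the difference between Dup-LdeltaBor and Dup-L peaked 30 kb to the centromeric side of the left-out bins, at 0.82, and was lowest at the centromeric end of the segment, at -0.23. At 30 kb to either side the left-out bins adjoin the gap, so dropping them removes the shortest pairs. Whether this placed the peak, or the lowest scores found at these positions, was not tested. In a 200 kb window of KR-normalised values, the lowest score within 200 kb of the boundary lay 30 kb to the centromeric side in Dup-L and WT. In Dup-LdeltaBor and deltaBor it lay 100 kb to the telomeric side of the start of the left-out bins, at scores of -0.42 and -0.79. The other settings placed the lowest score of Dup-LdeltaBor elsewhere, at -200 kb (raw counts, 500 kb), at 30 kb (raw counts, 200 kb, as in the other 3 libraries) and at -80 kb (KR-normalised values, 500 kb), where negative is centromeric, so its place depended on the setting.

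Contacts from the segment into the unduplicated neighbourhood split by whether they cross the boundary on the reference. Q with the centromeric rest, across the boundary, had 157186 contacts in Dup-L and 231985 in Dup-LdeltaBor, a scaled fold of 1.57 (1.56 to 1.58). P with the telomeric rest, also across it, had 9390 and 15211, at 1.72 (1.68 to 1.77). P with the centromeric rest on its own side had 231278 and 217439, at 0.999 (0.993 to 1.00), and Q with the telomeric rest had 159765 and 155345, at 1.03 (1.03 to 1.04). Only 1 end of these contacts is duplicated, so the scaled and copy-adjusted values bracket the comparison. Copy-adjusted folds were 1.15 and 1.26 across the boundary and 0.731 and 0.756 on the own side, so the order held on both scales, although library totals took the first of these to 0.993. In deltaBor over WT the scaled folds were 1.60 and 1.48 across it, 0.955 and 0.994 on the own side. In Dup-L over WT, with the boundary in both, they were 1.35 and 1.30 across it, 1.17 and 1.10 on the own side. The split near the segment was thus also present with the boundary in place, and the part of the copy level in it was not tested. The scaled fold of Q with the centromeric rest was 0.980 times that in deltaBor over WT (0.971 to 0.990), and the copy-adjusted one was 0.734 times. For P with the telomeric rest the ratio was 1.16 scaled (1.12 to 1.21) and 0.872 copy-adjusted (0.838 to 0.907), so its direction depended on the scale. With the far flanks the split was the same. P with the far telomeric flank had 71298 contacts in Dup-L and 93251 in Dup-LdeltaBor, a scaled fold of 1.39 (1.38 to 1.40), and Q with the far centromeric flank had 80378 and 94712, at 1.252 (1.24 to 1.26). On the own sides the scaled folds were 0.983 (P with the far centromeric flank) and 1.08 (Q with the far telomeric flank), so the contacts across the boundary were again the higher ones, by less than near the segment. For the far flanks, Dup-L over WT stood at 1.31 and 1.48 across the boundary, 1.42 and 1.28 on the own sides. Among blocks joining the segment to a flank, 71 of 729 had a scaled fold of 1.5 or more, a share near the 8.02% of all blocks. The highest was the last 100 kb of the centromeric rest with the first 100 kb of Q (3425 and 6637 contacts, 2.06 scaled). After copy adjustment 2 of the 729 were at or above 1.5 and 31 at or below its reciprocal. Among all 1845 blocks these counts were 24 and 433, where blocks without a duplicated end were divided by the same ratio.

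Contacts that pass over the whole segment went the other way. The centromeric rest and the telomeric rest shared 7283 contacts in Dup-L and 5134 in Dup-LdeltaBor, a scaled fold of 0.749 (0.722 to 0.776). Neither end is duplicated, so no copy adjustment applies. Without the duplication the same stretches shared 12510 contacts in WT and 14925 in deltaBor, at 1.47 (1.44 to 1.51), and the first fold was 0.509 times the second (0.487 to 0.531). The far flanks shared 59281 and 46747 contacts, at 0.838 (0.828 to 0.848), against 1.08 (1.07 to 1.10) in deltaBor over WT. The library without the boundary thus had fewer contacts over the segment in the duplicated pair and more in the pair without the duplication. Dup-L over WT, with the boundary in both, was already at 0.619 for the rests and at 0.823 for the far flanks. The copy ratio of 1.37 moved with the lower values, and its part in them was not tested. All 12 blocks at or below the reciprocal of 1.5, 0.65% of those measured, joined opposite flanks, among 455 such blocks with a median of 0.823. The lowest 5 joined stretches 2460 to 4260 kb apart, at 0.562 to 0.645, and the thinnest of them held 88 contacts in Dup-LdeltaBor.

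**Figure D5:**
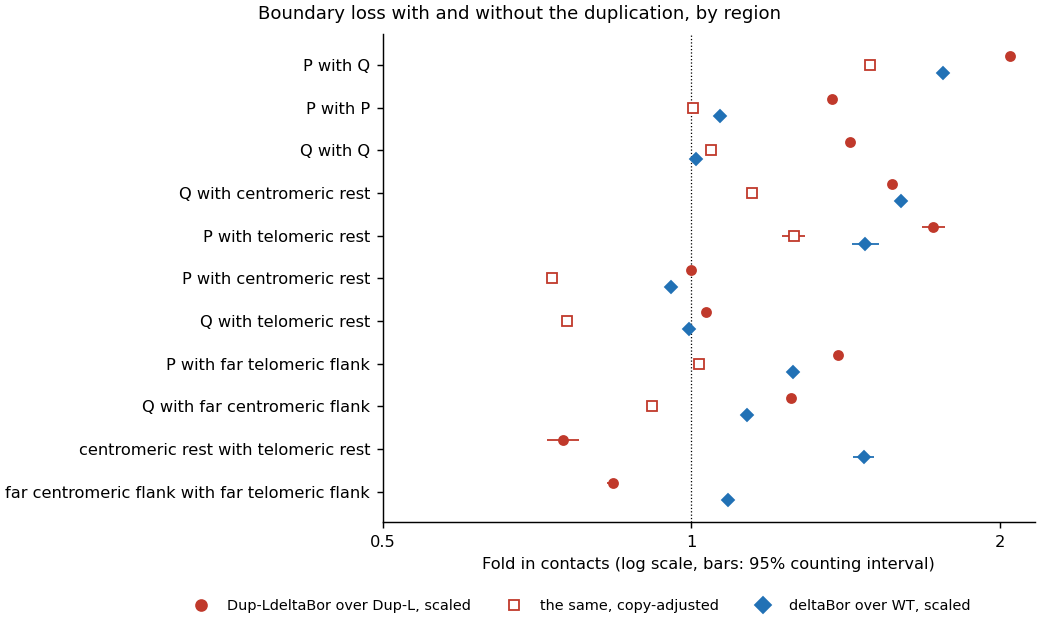
The fold in contacts (log scale, bars are the 95% counting interval) is plotted for 11 region pairs, for Dup-LdeltaBor over Dup-L as scaled (red circles) and, where an end is duplicated, copy-adjusted (open squares), and for deltaBor over WT as scaled (blue diamonds). P with Q has the highest red values, 2.04 scaled and 1.49 copy-adjusted, and in the lowest 2 rows the red and blue points lie on opposite sides of 1.

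The authors' deposited log2 ratio map of this comparison can be set beside these values. Its median was 0.86 over the 4662 bin pairs of P with Q, of which 99.8% were above 0, against 0.30 within P and 0.38 within Q. In the authors' deposited map the median was 0.47 for Q with the centromeric rest and 0.65 for P with the telomeric rest. For P with the centromeric rest it was -0.15 and for Q with the telomeric rest -0.11. The lowest median in the authors' deposited map was that of the centromeric rest with the telomeric rest, at -0.55, where 24.4% of the pairs lay above 0. On the files' values this map differed from the log2 ratio of the 2 raw maps by a median of -0.07, with a range of 0.04 over the bin pairs, and the scaling behind it was not given in the sources used here. That is a factor of 0.953 on the raw ratio, where the scaling used here was a factor of 1.06. Values in the map thus lie on a lower scale than the scaled folds above, and they are not copy-adjusted. Likewise, the authors' deposited difference map of the 2 genotypes was above 0 in 99.96% of the P with Q pairs and in 35.0% of the pairs between the rests.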

How the data were processed

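Capture Hi-C maps of 4 mouse limb bud libraries were used, grouped by the genotype label. Bowtie2 2.2.6 and the mm9 build were used upstream, per the submitters' processing notes. The authors deposited raw contact counts per pair of 10 kb bins, with a mapping quality of 30 marked in the file names. They also deposited KR (Knight-Ruiz) balanced signal maps. The authors' comparison maps hold log2 ratios, or, for the other map of this pair, differences of scaled raw maps. Pair filters, duplicate removal and the authors' scaling were not given in the sources used here.

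Raw counts of bins at least 2 bins apart were summed by region, without bins 111380001 to 111410000. Libraries were scaled on pairs with both bins below 110960001 or both above 112520000. The copy ratio is the ratio of same-bin contacts inside the segment over that outside. Folds and shares carry Clopper-Pearson 95% intervals, and ratios of folds carry log-normal counting intervals. The 100 kb blocks were counted outwards from the left-out bins and the segment ends. Blocks needed 50 contacts in both libraries and were called at a fold of 1.5. Named blocks were the 5 P with Q blocks with the largest and the 5 with the smallest copy-adjusted folds, and the 5 other blocks furthest from 1 in each direction. The members, regions and alternatives were chosen with earlier results of these data known. Alternatives were KR values, other scalings, distances, left-out bins, weights, copy ratios, segment ends, windows and thresholds (folds of 1.25 and 2). Sums, copy ratios and folds were tested on simulated data, where the counting intervals held the true copy-adjusted fold less often than their nominal level. Python 3.11.15, numpy 2.4.6, scipy 1.17.1, pandas 2.3.3 and matplotlib 3.10.9 were used.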

Additional observations from a re-analysis of the deposited data

Results flagged for a closer look

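For several region pairs the library without the boundary stood higher than its control in the pair with the duplication and lower in the pair without it, or the reverse, with 1 library per genotype, and in each case the difference was not tested. The duplicated pair also differs 1.37-fold in the copy ratio of the segment, whose part in these values was not tested. Contacts within Q had a copy-adjusted fold of 1.04 (1.04 to 1.05) in Dup-LdeltaBor over Dup-L and of 0.987 (0.983 to 0.990) in deltaBor over WT. As scaled folds both were above 1, at 1.43 and 1.01, and with KR-normalised values both were below 1, at 0.963 and 0.973. The opposite directions within Q were thus seen after copy adjustment but on neither of these other scales. Q with the far telomeric flank had a scaled fold of 1.08 (1.07 to 1.08) against 0.971 (0.967 to 0.976), and the first becomes 0.787 when divided by the copy ratio. The remaining 4 join unduplicated stretches on opposite sides of the segment and were all lower in Dup-LdeltaBor and higher in deltaBor. They are the centromeric rest with the telomeric rest (0.749 against 1.47), the centromeric rest with the far telomeric flank (0.774 against 1.20), the telomeric rest with the far centromeric flank (0.793 against 1.11), and the far flanks with each other (0.838 against 1.08). In Dup-L over WT, with the boundary in both, these 4 were 0.619, 0.664, 0.773 and 0.823.

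The left-out bin 111390001 to 111400000 held 1839 contacts in Dup-LdeltaBor and 0 in deltaBor. Of these, 8.32% joined it to P, 38.0% to Q, 12.7% to the left-out bins and 41.0% to chromatin outside the segment, against 13.6%, 47.7%, 13.5% and 25.3% in Dup-L. Why contacts remained in that bin was not tested.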

How the results depend on the processing

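The copy-adjusted fold of P with Q (1.49) stayed above 1 under all 12 alternatives, from 1.29 to 1.68, and 5 of them left it within its counting interval. It was 1.36 with KR-normalised values (not divided by the copy ratio), 1.29 when scaled to the library total, 1.52 and 1.48 when scaled on contacts below or above the segment, 1.52 with equal weight for each distance, 1.68 with same-bin contacts on the scale of the folds and 1.52 with adjacent-bin contacts. The share difference (5.93 percentage points) was 6.19 with KR-normalised values, 6.92 without contacts under 10 bins apart, 5.71 with 2 more bins left out on each side and 5.60 without 50 kb at each end. Directions depended on the scale: Q with Q was 0.963 with KR-normalised values and 0.904 with library totals, and Q with the centromeric rest 0.993 with library totals. The P with P fold ran from 0.868 to 1.13 over the 12 alternatives. Blocks past the threshold numbered 401 higher and 200 lower at the looser of the alternative thresholds, and 30 higher and 0 lower at a fold of 2, where 28 joined P to Q. With 200 contacts required, 5 were lower. In all of these the cause was not tested. No paired analysis was possible because each genotype has 1 library. The choice of scale and copy ratio moved the P with Q fold by more than its counting interval, and the spread between embryos was not measured.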
